A study of Mus musculus with 2 samples.

Results

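The respiratory chain genes of mouse mitral valve cells were taken as all genes whose symbol begins with Nduf, Uqcr, Atp5 or mt-, or with Cox and a digit from 4 to 8, together with Sdha, Sdhb, Sdhc and Sdhd, where a gene held at least 200 unique molecular identifiers (UMIs) over both libraries. Of 107 symbols with such names, 104 reached the minimum, 91 nuclear and 13 mitochondrial, among 32285 genes in all, of which 23296 had at least 1 UMI. The 3 left out were Cox6a2 with 124 UMIs, Cox7b2 with 68 and Cox8c with 0, and the members nearest above the minimum were Cox7a1 with 627, Cox8b with 1152 and Ndufaf5 with 1400.

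The data were 2 single-cell 3′ libraries of dissected leaflets from C57BL/6J mice at 1 month of age. The wild type library (Fbn1 +/+) pooled 5 mice and the Fbn1 C1039G/+ library pooled 3 mice. Fbn1 encodes fibrillin-1, and the heterozygous C1039G allele is a mouse model of Marfan syndrome. Each genotype had 1 library, so genotype differences have no replicate, and differences between cell classes were tested with the 2 libraries as the repeats.

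Cells were put into 4 classes by a few defining transcripts. Interstitial cells, the matrix-making cells of the leaflet, had at least 1% of their UMIs from Dcn, Col1a1, Col1a2 and Col3a1. Below that, macrophages had at least 10 UMIs of C1qa, C1qb and C1qc, endothelial cells at least 5 of Pecam1, Cdh5 and Emcn, and melanocytes at least 10 of Dct, Pmel and Mlana. This gave 6870 wild type and 7037 Fbn1 C1039G/+ interstitial cells, 775 and 860 macrophages, 235 and 311 endothelial cells, and 113 and 74 melanocytes, while 428 and 373 cells met no class and 5 and 6 met several. The summed depth behind a level ran from 564615 UMIs in Fbn1 C1039G/+ melanocytes to 75091082 in interstitial cells of the same library, so low-level genes are least certain in melanocytes.

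The class names were checked with markers that the class rules did not use. Levels are counts per 1000000 UMIs of the class and library (CPM), with the wild type value first. Tyrp1, Tyr and Mitf, of melanocytes, summed to 5973 and 7713 CPM in melanocytes and at most 31.7 elsewhere. Adgre1, Csf1r, Mrc1, Cd68 and Lyz2, of macrophages, summed to 10598 and 11446 CPM in macrophages and at most 75.5 elsewhere. Kdr, Tie1, Egfl7 and Ecscr, of endothelial cells, summed to 2392 and 2430 CPM in endothelial cells and at most 55.9 elsewhere. The interstitial markers Lum, Pdgfra, Postn and Vcan summed to 5254 and 6005 CPM in interstitial cells, but also to 1757 and 2623 CPM in endothelial cells, where Pdgfra, at 279 and 359 CPM, was above its interstitial level of 115 and 87.7. The endothelial class thus carried interstitial markers at a level like that of its own. Fbn1 C1039G/+ melanocytes held 864 CPM of these 4 markers against 69.6 in the wild type. Melanocytes held 2201 and 1401 CPM of 4 Schwann cell markers. The 10 cardiomyocyte markers reached 24.0 and 37.0 CPM in interstitial cells, 30.7 and 32.1 in endothelial cells and 0 and 8.86 in melanocytes. Most of the interstitial sum was Tnnt2, and most of the endothelial sum was Tnnt2 and Tnni3. Myh6, Myl3, Nppa and Mb were each at most 0.211 CPM in any class. The libraries shared 17 cell barcodes. The part of these other transcripts in the results was not tested, except where a value without the cells that hold them is given.

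The respiratory chain passes electrons from NADH (complex I) and succinate (complex II) through ubiquinone, complex III and cytochrome c to oxygen at complex IV, and complex V uses the resulting proton gradient to make ATP. Complexes I, III, IV and V join subunits from nuclear genes to a core from the mitochondrial genome, whereas complex II is nuclear throughout. Several small subunits, most of them in complex IV, exist as isoforms from separate genes, with one widely expressed form and others known from heart, muscle, lung or testis. Cox4i2 replaces Cox4i1 in some cells of the lung and in vessel walls and is known for a role in oxygen sensing. Ndufa4l2 resembles the complex IV subunit Ndufa4 and is a known target of hypoxia-inducible factors. Cox8b and Cox7a1 are the heart and muscle forms beside Cox8a and Cox7a2, and Cox6b2 is known as the testis form beside Cox6b1.

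The isoform pairs on which the results turn are shown by the last 90 bases of their coding sequence, because they are counted as separate genes only where reads can tell them apart. Sequences follow the GENCODE M21 annotation of GRCm38, and capitals mark bases that differ from the partner gene. Over the whole coding sequence Cox4i1 (chr8:120668222-120674207, plus strand) and Cox4i2 (chr2:152754173-152765037, plus strand) were 62.9% identical, and 19 of the 90 bases shown differ.
Cox4i1: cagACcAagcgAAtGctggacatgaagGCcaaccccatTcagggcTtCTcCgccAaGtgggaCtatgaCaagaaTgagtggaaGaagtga
Cox4i2: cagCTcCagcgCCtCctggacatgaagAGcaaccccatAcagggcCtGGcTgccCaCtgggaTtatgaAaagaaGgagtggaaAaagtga
Ndufa4 (chr6:11900292-11907497, minus strand) and Ndufa4l2 (chr10:127514967-127517154, plus strand) were 62.7% identical, with 26 of the 90 bases different.
Ndufa4: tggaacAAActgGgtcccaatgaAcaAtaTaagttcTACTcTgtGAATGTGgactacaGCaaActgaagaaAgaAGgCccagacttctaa
Ndufa4l2: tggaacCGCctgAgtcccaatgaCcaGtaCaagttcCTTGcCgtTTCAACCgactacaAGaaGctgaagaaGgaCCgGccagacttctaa
Cox6b1 (chr7:30616861-30626151, minus strand) and Cox6b2 (chr7:4751792-4753094, minus strand) were 61.3% identical, with 33 of the 90 bases different.
Cox6b1: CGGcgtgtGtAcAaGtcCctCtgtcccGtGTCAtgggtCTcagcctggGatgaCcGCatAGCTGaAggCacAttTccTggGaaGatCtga
Cox6b2: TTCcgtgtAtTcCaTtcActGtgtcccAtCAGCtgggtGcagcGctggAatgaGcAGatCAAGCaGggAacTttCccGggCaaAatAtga
Cox8a (chr19:7215153-7217616, minus strand) and Cox8b (chr7:140898945-140900446, minus strand) were 52.5% identical, the least of these pairs, and each can be told from its partner along the whole stretch.
Cox8a: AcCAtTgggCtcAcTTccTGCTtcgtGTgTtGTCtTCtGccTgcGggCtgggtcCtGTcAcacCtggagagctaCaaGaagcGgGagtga
Cox8b: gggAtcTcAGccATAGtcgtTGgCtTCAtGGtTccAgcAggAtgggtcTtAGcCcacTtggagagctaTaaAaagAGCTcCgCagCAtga

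Class-specific isoforms were sought first. An isoform was called class-specific when its CPM in 1 class was at least 5 times that in each of the others in both libraries, with at least 20 UMIs in that class in each. Among the 104 members 3 met this, all of them in interstitial cells, namely Cox4i2, Ndufa4l2 and Cox8b. That is 2.88% of members. Of the 13472 genes with at least 200 UMIs 9.51% were specific to some class and 3.33% to interstitial cells, so the interstitial share of members was near that of genes at large. The rule compares the 4 classes only. Cells in no class held 58.4 and 69.0 CPM of Cox4i2, 13.4 and 9.65 of Ndufa4l2 and 12 and 9 UMIs of Cox8b. A UMI in this assay stands for 1 captured 3′ transcript end, so CPM is not divided by gene length.

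Cox4i2 stood at 140 CPM in wild type and 143 CPM in Fbn1 C1039G/+ interstitial cells. Macrophages held 7.19 and 2.85 CPM, endothelial cells 3.12 and 4.65 CPM, and melanocytes 0 and 12.4 CPM. Both interstitial values thus lay far above every other class. The interstitial level was 19.4-fold and 50.3-fold that of macrophages and 44.7-fold and 30.9-fold that of endothelial cells. Against wild type melanocytes, with 0 UMIs, it was at least 33.4-fold higher at a floor of 3 counts in that library, and against Fbn1 C1039G/+ melanocytes, with 7 UMIs in 2 cells, it was 11.6-fold. The fitted log2 ratio to interstitial cells was -4.81 ± 0.41 (SE) in macrophages (adjusted p = 3.3e-05, edgeR), -5.15 ± 0.46 in endothelial cells (0.0001) and -4.69 ± 0.68 in melanocytes (0.0018). The mean of Cox4i2 over the other classes was 5.04 CPM, barely above the minimum of 5 CPM for testing. The 7 UMIs in Fbn1 C1039G/+ melanocytes raised that mean. Cox4i2 thus came close to being tested through interstitial cells alone, and these tests add little to the levels. With predicted doublets kept, the lower of the 2 libraries' ratios fell to 4.19 and Cox4i2 missed the 5-fold rule, while its fitted log2 ratio in melanocytes moved to -2.99.

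Within its pair, Cox4i2 made up 18.8% of the Cox4i1 and Cox4i2 transcripts of interstitial cells in the wild type (exact 95% interval 18.5 to 19.2) and 19.5% in Fbn1 C1039G/+ (19.2 to 19.8). In the other classes the share ran from 0 to 1.08%. Cox4i1, the ubiquitous form, was therefore the main form everywhere, at 602 and 592 CPM in interstitial cells and up to 1273 CPM in wild type melanocytes. After each cell was thinned to 3000 UMIs, a Cox4i2 UMI was found in 28.2% and 27.3% of interstitial cells, against 1.34% and 1.12% of macrophages. Before thinning the shares were 53.1% and 51.3% against 4.26% and 2.33%. Thinning left out 36 wild type and 251 Fbn1 C1039G/+ interstitial cells and 28 and 54 macrophages that were shallower.

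The low Cox4i2 signal outside interstitial cells was set beside other interstitial transcripts there. In macrophages Cox4i2 stood at 5.15% and 1.99% of its interstitial level, and Lum, a matrix proteoglycan gene outside the class rule, at 2.78% and 1.89%. In endothelial cells Cox4i2 stood at 2.24% and 3.24% and Lum at 10.4% and 12.0%. In melanocytes Cox4i2 was at 0 and 8.64%, and Lum at 1.61% and 8.49%. Col1a1, which the class rule used, stood at 2.68% and 1.40% in macrophages, 1.18% and 1.65% in endothelial cells and 1.05% and 4.66% in melanocytes, and Dcn, also in the rule, at 1.82% and 0.991%, 14.1% and 15.3%, and 0.675% and 2.88%. In endothelial cells Cox4i2 lay below Lum and Dcn and above Col1a1, and in macrophages of both libraries it lay above all 3.

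Ndufa4l2 was less abundant. It stood at 24.8 CPM in wild type and 16.8 CPM in Fbn1 C1039G/+ interstitial cells, or 5.14% and 3.48% of the Ndufa4 and Ndufa4l2 transcripts. Macrophages held 2.99 CPM (22 UMIs) and 0.285 CPM (2 UMIs), endothelial cells 1 and 0 UMIs, and melanocytes 0 UMIs in both libraries. The interstitial level was 8.32-fold that of macrophages in the wild type (exact 95% interval 5.47 to 13.3) and 58.9-fold in Fbn1 C1039G/+ (16.3 to 487). It was at least 26.5-fold that of Fbn1 C1039G/+ endothelial cells. Against melanocytes the floor of 3 counts allowed only at least 5.94-fold and 3.16-fold, so in the Fbn1 C1039G/+ library the 5-fold difference was not resolved at this depth. Ndufa4l2 reached the minimum mean for testing between classes only through interstitial cells, with a mean of 0.592 CPM in the other classes, so no test is given for it.

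Mural cells, the contractile cells of vessel walls, are known for high Ndufa4l2 and were not a class of their own. Interstitial cells and cells in no class were therefore divided by their UMIs of 6 mural markers (Rgs5, Kcnj8, Abcc9, Myh11, Des and Rgs4). Ndufa4l2 went from 18.7 CPM in the wild type cells with under 5 such UMIs to 36.4 CPM at 5 to 19 and 159 CPM at 20 or more. In Fbn1 C1039G/+ the same bins held 14.0, 22.4 and 51.3 CPM. The top bins were small, with 110 and 158 cells, and their counting intervals of 140 to 180 and 42.5 to 61.3 CPM did not overlap. Cox4i2 showed no such climb in common to both libraries, at 135, 134 and 170 CPM in the wild type and 147, 112 and 96.9 CPM in Fbn1 C1039G/+. All 3 isoforms met the class-specific rule also without the cells that reached 5 mural UMIs.

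**Figure D1:**
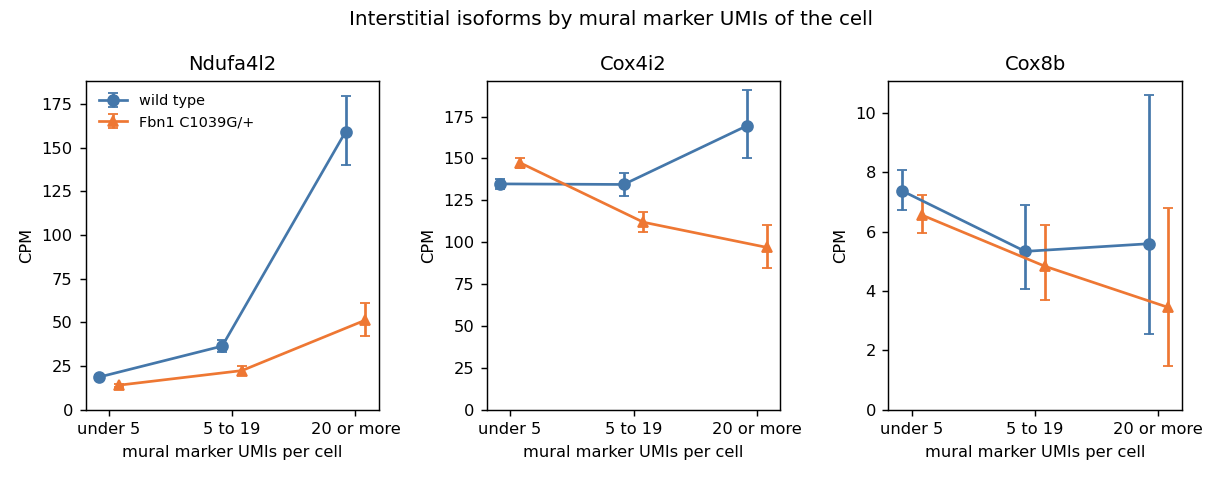
Level in CPM of Ndufa4l2, Cox4i2 and Cox8b in interstitial and unclassed cells, by the number of mural marker UMIs of the cell; bars are exact Poisson 95% intervals, which cover counting error only. Ndufa4l2 reached 159 CPM in wild type and 51.3 CPM in Fbn1 C1039G/+ cells with 20 or more mural UMIs, whereas Cox4i2 and Cox8b did not rise in both libraries.

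Cox8b, the heart and muscle form, was rare. It stood at 7.25 CPM (522 UMIs) in wild type and 6.35 CPM (477 UMIs) in Fbn1 C1039G/+ interstitial cells, or 1.07% and 0.924% of the Cox8 transcripts. The other classes together held 2 UMIs in each library. Against wild type macrophages it was at least 17.8-fold higher and against Fbn1 C1039G/+ endothelial cells at least 10.0-fold. Against melanocytes the ratio was 5.21 in the wild type, with an interval of 0.931 to 206 from a single melanocyte UMI, and at least 1.20 in Fbn1 C1039G/+. The comparison with melanocytes was thus not resolved, and with cells thinned to 3000 UMIs Cox8b missed the rule, at 1.85-fold.

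Because Cox8b is a cardiomyocyte gene, its level was also read by cardiomyocyte markers over all kept cells. In the 7466 and 7271 cells with 0 UMIs of the 10 markers it stood at 5.85 and 4.76 CPM, and in cells with 3 to 9 such UMIs at 7.49 and 10.6 CPM. Its exact intervals in the wild type overlapped (5.32 to 6.42 and 4.19 to 12.3), and in Fbn1 C1039G/+ they did not (4.28 to 5.29 and 7.64 to 14.3). The bins also differ in cell class. All 775 and 860 macrophages, with 0 and 2 Cox8b UMIs, had under 3 such marker UMIs, and interstitial cells as a whole held 7.25 and 6.35 CPM. Most of the marker sum was Tnnt2. The part of class in the bin difference was not tested. The class-specific call was also met after cells with 3 or more cardiomyocyte marker UMIs were left out. Cox7a1, the other heart form, was at most 4.34 CPM in any class and under 1% of the Cox7a transcripts throughout. The muscle form Cox6a2, which was no member, made up 1.18% and 1.42% of the Cox6a transcripts in macrophages and 0.138% and 0.215% in interstitial cells.

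**Figure D2:**
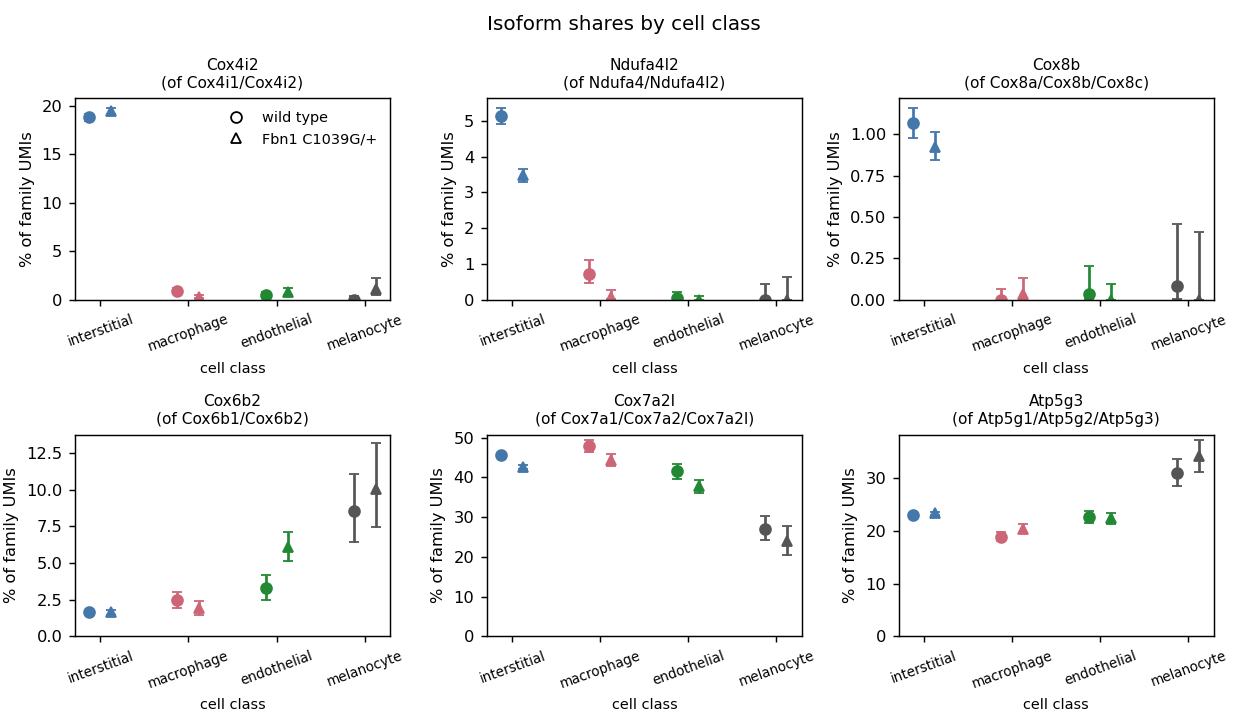
Share of each isoform family's UMIs, in percent, held by 1 isoform in each cell class; circles are wild type, triangles Fbn1 C1039G/+, and bars exact binomial 95% intervals. Cox4i2, Ndufa4l2 and Cox8b take a share in interstitial cells, and Cox6b2 and Atp5g3 take their highest shares and Cox7a2l its lowest in melanocytes.

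Cox6b2, the testis form, followed an order of its own. Interstitial cells held 5.46 and 5.77 CPM, macrophages 11.1 and 10.1, endothelial cells 16.8 and 30.8, and melanocytes 72.4 and 81.5 CPM (52 and 46 UMIs). The 4 classes did not overlap between libraries. Against interstitial cells the fitted log2 ratio was 0.93 ± 0.23 in macrophages (adjusted p = 0.0086), 2.09 ± 0.22 in endothelial cells (0.00026) and 3.77 ± 0.28 in melanocytes (9.3e-05, edgeR). Melanocytes also exceeded endothelial cells, by 1.69 ± 0.28 on the log2 scale (edgeR adjusted p = 0.0033). The macrophage call was lost with cells thinned to 3000 UMIs, at a log2 ratio of 0.65. Cox6b2 did not qualify as class-specific because melanocytes were under 5-fold above endothelial cells, and it made up 8.55% and 10.0% of Cox6b transcripts in melanocytes against 1.65% and 1.63% in interstitial cells.

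Other families shifted in balance without a private isoform. Cox7a2l, a paralogue of Cox7a2 known for joining complexes III and IV into supercomplexes, stood at 316 and 237 CPM in melanocytes and 271 and 231 CPM in interstitial cells, while Cox7a2 stood at 845 and 751 against 318 and 307 CPM. Cox7a2 was higher in melanocytes by 1.35 ± 0.10 on the log2 scale (edgeR adjusted p = 0.00011), and Cox7a2l, at 0.14 ± 0.11, did not pass the test. Cox7a2l accordingly made up 27.1% and 23.9% of the family in melanocytes against 45.7% and 42.7% in interstitial cells. Atp5g1, Atp5g2 and Atp5g3 encode the same membrane ring subunit of complex V. Atp5g3 took 31.0% and 34.2% of their transcripts in melanocytes against 23.1% and 23.4% in interstitial cells. Atp5g2 took 50.7% and 47.8% in macrophages and 49.4% and 48.6% in endothelial cells, against 41.4% and 39.0% in interstitial cells.

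The levels of the whole chain were then compared between classes. A member was called when its adjusted p was under 0.05, it differed at least 1.5-fold and both libraries had the same direction. Of the members 102 had a mean of at least 5 CPM and were tested among 11068 genes, while Cox7a1 and Cox8b were too low. Melanocytes stood apart: 52 members were higher than in interstitial cells and 2, Cox4i2 and Ndufa4l2, were lower. Of the 102, Ndufa4l2 alone had passed the minimum through 1 class only, and its calls as lower, here and below, are counted but support nothing. Cox4i2 was barely above the minimum without interstitial cells, at a mean of 5.04 CPM in the other classes, so its calls as lower add little. Over all genes tested 17.3% were called higher and 14.2% lower. The median log2 ratio of members was 0.60 against 0.11 for all genes, and 90 of the 102 were higher in both libraries. That count of 90 has no value over all genes beside it.

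**Figure D3:**
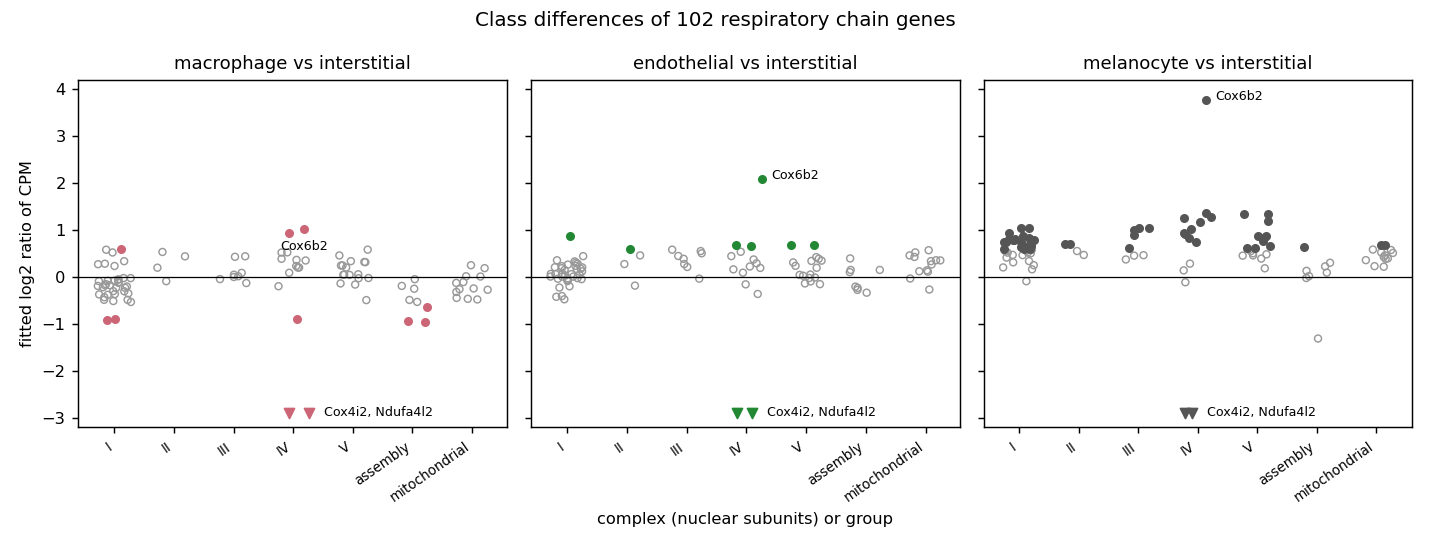
Fitted log2 ratio of CPM of each tested member, by complex, for 3 cell classes against interstitial cells; filled points were called and open points were not, and Cox4i2 and Ndufa4l2, which lie below the axis, are drawn at its lower edge as triangles. In melanocytes the nuclear subunits of every complex lie mostly above 0. In endothelial cells 58 of 81 nuclear subunits lie above 0, at a median of 0.17 against 0.22 for all genes. In macrophages 38 of 81 do.

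Every complex took part in the melanocyte difference. In complex I, 22 of 37 nuclear subunits were higher and none lower, led by Ndufa3 at 1.04 ± 0.10 (log2 ratio ± SE; adjusted p = 0.00036) and Ndufb8 at 1.04 ± 0.10 (0.00026), while the accessory subunit Ndufv3, at -0.09, did not pass. In complex II, Sdha, which binds succinate, and Sdhc were called, both at 0.70, and Sdhb and Sdhd were not; neither call was kept under the other scalings given below. In complex III, 5 of 8 were higher, among them the iron-sulfur protein Uqcrfs1 at 1.05 ± 0.13 (0.00097, edgeR). In complex IV, 10 of 15 were higher, and after Cox6b2 and Cox7a2 the largest ratios were those of Cox8a at 1.27 ± 0.09 (7.6e-05) and Ndufa4 at 1.26 ± 0.10 (0.00013). In complex V, 10 of 17 were higher, led by Atp5mpl, a small membrane subunit, at 1.35 ± 0.10 (0.0001) and the catalytic subunit Atp5b at 1.33 ± 0.10 (8.3e-05).

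The values by library show the size of these differences. Ndufa4 held 1184 and 1027 CPM in melanocytes, 733 and 723 in endothelial cells, 458 and 467 in interstitial cells and 408 and 398 in macrophages. Melanocytes exceeded each other class there, and the difference between macrophages and interstitial cells did not pass (log2 ratio -0.20 ± 0.10, edgeR adjusted p = 0.11). Atp5b held 795 and 928 CPM in melanocytes, 500 and 603 in endothelial cells, 400 and 449 in macrophages and 329 and 354 in interstitial cells. Cox6c, the most abundant nuclear complex IV transcript of interstitial cells, went against the group, with 878 and 918 CPM in interstitial cells and 861 and 799 CPM in melanocytes. In all, 67 of the 91 nuclear members had their highest level in melanocytes in both libraries. The same count over all genes was not taken, so it describes the members only.

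The 8 complex I assembly factors, which build the complex and are not part of it, were less uniform. Only Ndufaf8 was called in melanocytes, at 135 and 135 CPM against 88.7 and 85.8 in interstitial cells (log2 ratio 0.63 ± 0.12, edgeR adjusted p = 0.0068), and its call was lost under other scalings. Ndufaf6, at 2 and 3 melanocyte UMIs, had a fitted ratio of -1.31 ± 0.49 that did not pass (adjusted p = 0.080, edgeR). Of the 13 mitochondrial genes, mt-Nd5 and mt-Nd3 were called in melanocytes, at 0.69 ± 0.10 and 0.68 ± 0.12 (edgeR adjusted p = 0.002 and 0.0038), and all 13 had a ratio above 0. Their calls were likewise lost under other scalings.

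The same direction appeared against the other classes. Against macrophages 64 of 102 members were higher in melanocytes and 0 lower, where 32.2% of all genes were higher and 14.5% lower. Against endothelial cells 34 were higher and 0 lower, where 13.3% of all genes were higher and 18.5% lower. Scaling matters for the counts: with TMM factors the median of all genes in melanocytes against interstitial cells moved from 0.11 to -0.05, and the counts fell from 52 and 2 to 33 and 2 members (13.4% and 17.0% of all genes higher and lower). DESeq2 with its size factors gave 34 and 2 (14.3% and 16.6%). No called member changed sign under any alternative.

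Summed over subunits, the ratio of melanocytes to interstitial cells was 1.57 in the wild type and 1.46 in Fbn1 C1039G/+ for nuclear complex I, 1.49 and 1.54 for complex II, 1.77 and 1.58 for complex III, 1.85 and 1.72 for complex IV, and 1.62 and 1.57 for complex V. The sums of all nuclear members were 1.67 and 1.56 times as high, or 3.37% and 3.19% of melanocyte UMIs against 2.02% and 2.04% of interstitial UMIs. Mitochondrial transcripts took 4.64% of melanocyte UMIs in both libraries and 3.43% and 3.38% of interstitial UMIs. The mitochondrial sum exceeded that of interstitial cells by less than the nuclear one, and mitochondrial over nuclear member UMIs was 1.38 and 1.46 in melanocytes against 1.70 and 1.66 in interstitial cells. Melanocytes had the lowest median depth, with 6060 and 6634 UMIs per cell against 9949 and 9958 in interstitial cells. With every cell thinned to 3000 UMIs 38 members were higher and 2 lower, without a share of all genes to set beside them.

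**Figure D4:**
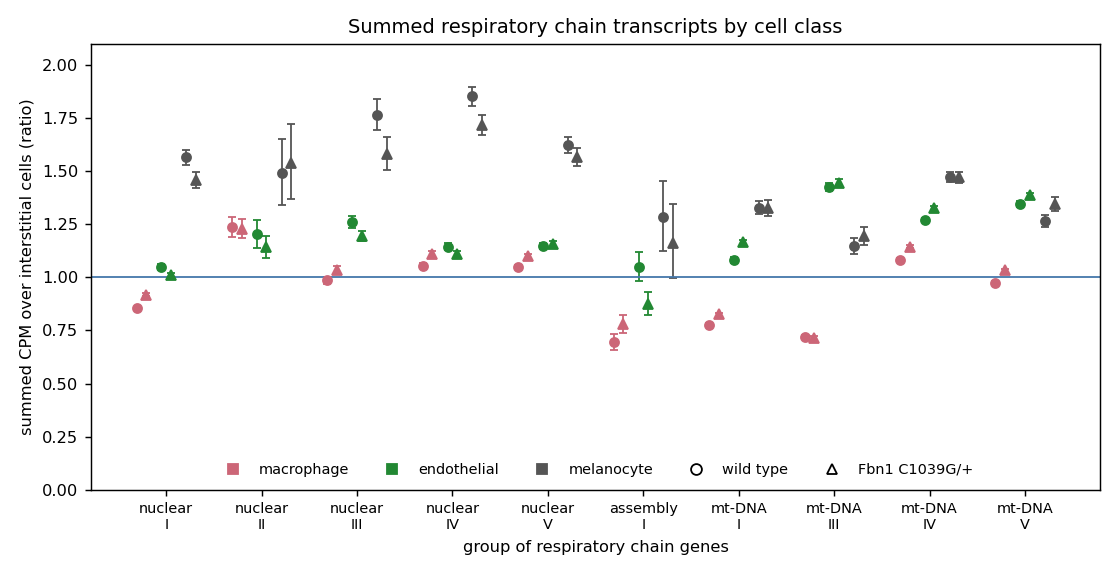
Summed CPM of each group of respiratory chain genes in macrophages, endothelial cells and melanocytes, as a ratio to interstitial cells of the same library (line at 1); mt-DNA marks subunits from the mitochondrial genome and bars are 95% counting intervals. Melanocytes lie at 1.46 to 1.85 for nuclear complexes I to V, and macrophages lie under 1 for mitochondrial complexes I and III.

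Endothelial cells differed in fewer members, with 7 higher and 2 lower (Cox4i2 and Ndufa4l2) than interstitial cells among 102, where 25.5% and 13.5% of all genes were called. After Cox6b2, the largest was Ndufa8, an accessory subunit of complex I, at 324 and 297 CPM against 164 and 174 (log2 ratio 0.88 ± 0.11, adjusted p = 0.00065, edgeR). Atp5b, Cox5a, Atp5g2, Ndufa4 and Sdhd followed at log2 ratios of 0.59 to 0.69, and none of these 5 kept its call with TMM factors or DESeq2. Both scalings gave 2 higher and 6 lower, since they moved the median of all genes from 0.22 to -0.01, and 17.2% and 17.9% of all genes were called with TMM factors and 16.6% and 17.1% with DESeq2. Relative to that median, members as a whole lay slightly low, at 0.16.

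The mitochondrial genes took a larger share of UMIs in endothelial than in interstitial cells, though 0 of the 13 were called. Among all genes 25.5% were called higher and 13.5% lower. Shares use all UMIs as totals, by which the median log2 ratio of all genes was itself 0.22. The mitochondrial genes made up 4.37% and 4.49% of endothelial UMIs, between the interstitial and melanocyte shares. That was 1.92 and 2.01 times the nuclear member UMIs, the highest ratio of the 4 classes. The median over cells was 4.47% and 4.59%, against 3.41% and 3.34% of interstitial cells. The share of endothelial over interstitial cells, averaged over libraries, was 1.30 with the limit of 20% mitochondrial UMIs per cell and 1.31 without it. The genes did not move together. mt-Cytb, the complex III core gene, stood at 6194 and 6732 CPM against 4347 and 4656 in interstitial cells, a log2 ratio of 0.52 ± 0.07 (edgeR adjusted p = 0.0009), and mt-Co1 of complex IV at 0.57 ± 0.08. Both passed the adjusted p but not the 1.5-fold limit. mt-Nd2 held 2177 and 2188 CPM against 2292 and 2180, and its ratio did not pass (adjusted p = 0.74, edgeR).

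Macrophages had 3 members higher (Cox5a, Cox6b2 and Ndufb8) and 8 lower than interstitial cells, where 20.9% and 35.9% of all genes were called. Cox5a, a nuclear subunit on the matrix side of complex IV, was higher, at 400 and 491 CPM against 200 and 238 (log2 ratio 1.02 ± 0.09, adjusted p = 5.2e-05, edgeR). Ndufb8 was called at 0.60, near the limit of 1.5-fold, and lost its call with doublets kept or cells thinned. Beside Cox4i2 and Ndufa4l2, the lower members were the complex I subunits Ndufb2 (100 and 104 CPM against 198 and 186) and Ndufa11 (135 and 150 against 259 and 273), the complex IV subunit Cox6c (488 and 481 against 878 and 918), and 3 assembly factors, Ndufaf4, Ndufaf2 and Ndufaf1. The log2 ratios of these 6 lay between -0.95 and -0.64. Ndufaf1 lost its call with TMM factors and DESeq2, and Ndufaf2 with DESeq2.

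The macrophage counts also depended on scaling. With TMM factors the median of all genes moved from -0.23 to 0.02, and 18 members were higher and 7 lower (26.8% and 29.1% of all genes). DESeq2 gave 15 and 6 (25.9% and 29.1%). By values of the Fbn1 C1039G/+ library alone, with no test and no share of all genes beside them, 8 members were higher and 9 lower. A scaling factor moves all ratios to interstitial cells alike, so their order within a class does not depend on it. In macrophages nuclear complex I summed to 0.854 and 0.919 times its interstitial level and complex II to 1.24 and 1.23, and mitochondrial complex I to 0.776 and 0.826 and mitochondrial complex IV to 1.08 and 1.14. mt-Cytb was lower, at 3124 and 3325 CPM (log2 ratio -0.48 ± 0.07, edgeR adjusted p = 0.00071), without reaching 1.5-fold. Cycling markers summed to 428 and 514 CPM in macrophages and 50.8 and 56.1 in interstitial cells, and their part in these values was not tested.

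Genes around the chain were read from 4 further lists, beside the shares of all genes called higher and lower than in interstitial cells (17.3% and 14.2% in melanocytes, 25.5% and 13.5% in endothelial cells, 20.9% and 35.9% in macrophages). Of 19 tested electron carriers and accessory factors, 10 were higher (52.6%) and 1 lower in melanocytes, 5 (26.3%) and 0 in endothelial cells, and 4 and 4 (21.1% each) in macrophages. The shares higher in endothelial cells and macrophages were thus near those of all genes. Chchd10, a small protein of the mitochondrial intermembrane space, had 969 and 1171 CPM in melanocytes, 8.24 and 12.0 in endothelial cells, 8.68 and 9.13 in macrophages and 1.82 and 1.94 in interstitial cells (melanocyte log2 ratio 9.14 ± 0.16, adjusted p = 4.4e-07, edgeR). Cytochrome c itself, Cycs, was higher in melanocytes by 1.03 ± 0.12. The ADP/ATP carriers split in macrophages, where Slc25a4 stood at 170 and 173 CPM against 691 and 701 in interstitial cells, and Slc25a5 at 420 and 467 against 185 and 215.

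Of 13 tested regulators of mitochondrial biogenesis, 4 were higher in melanocytes (30.8%), 4 in endothelial cells (30.8%, near the share of all genes) and 1 in macrophages (7.69%), and 2 were lower in macrophages (15.4%). Ppargc1a, the coactivator PGC-1 alpha, held 80.8 and 83.2 CPM in melanocytes, 9.09 and 7.82 in endothelial cells, 2.01 and 1.74 in interstitial cells and 0 UMIs in macrophages. It reached the minimum mean for testing only through melanocytes, as did Mterf1a (mean 4.84 CPM in the other classes), so no test is given. Both are counted among the 4 higher in melanocytes. Ppargc1a is also counted as higher in endothelial cells and lower in macrophages. The counts that hold these genes support nothing about the list. Esrra, the nuclear receptor that Ppargc1a acts with, was higher in all 3 other classes than in interstitial cells. Its level was 25.1 and 23.0 CPM in melanocytes against 9.10 and 10.0 in interstitial cells. Of 28 assembly factors of complexes IV and V and related factors, 3 were higher in melanocytes (10.7%, under the share of all genes), among them the copper chaperone Cox17 at 1.60 ± 0.13 (log2 ratio, edgeR adjusted p = 0.00015). Macrophages had 2 higher and 4 lower of that list (7.14% and 14.3%), and endothelial cells 2 and 1 (7.14% and 3.57%).

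Among the 19 tested glycolysis and hypoxia genes, 10 were higher and 3 lower in melanocytes (52.6% and 15.8%), 4 and 2 in endothelial cells (21.1% and 10.5%), and 6 and 6 in macrophages (31.6% each), where the shares in endothelial cells and those of lower genes were near the shares of all genes. The 3 lower in melanocytes were Egln3, Epas1 and Vegfa, which respond to or carry the hypoxia signal, and these were also among the 6 lower in macrophages. Egln3 stood at 26.9 and 25.2 CPM in interstitial cells, 1.39 and 10.6 in melanocytes, and at most 1.63 in macrophages and 1.48 in endothelial cells. It too was tested only through its high class. Hk2 and Pdk1 were tested only through macrophages, with means of 4.09 and 4.82 CPM in the other classes. Both are among the 6 higher in macrophages, and Hk2 is also counted as lower in endothelial cells. The counts that hold Egln3, Hk2 or Pdk1 support nothing about the list. Epas1, which encodes HIF-2 alpha, was instead highest in endothelial cells, at 205 and 162 CPM against 83.4 and 70.6 in interstitial cells and 6.51 and 2.85 in macrophages. These lists are given as counts beside the members, and nothing is drawn from them about control of the isoforms.

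RefSeq promoter windows of GRCm38.p6, from 250 bases before to 50 after the start, were matched by symbol for 74 of the 91 nuclear members and 17491 genes in all. The 4 patterns below were searched on both strands. The palindromic NRF1 pattern occurred for 19 of the 74 members (25.7%) and 7.17% of all genes, the ETS pattern CCGGAAG for 19 (25.7%) against 12.9%, the YY1 pattern AAGATGGC for 10 (13.5%) against 3.57%, and the estrogen-related receptor pattern TCAAGGTCA for 2 (2.70%) against 0.377%. The median GC content was 58.3% for member windows and 56.3% for all. The receptor pattern lay in the windows of Atp5g3 and Sdhd. A match describes the letters only.

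The 250 bases before the start are shown for Atp5g3 (chr2:73911327-73911576, minus strand), whose share was highest in melanocytes, and for Cox8b (chr7:140900447-140900696, minus strand), found in interstitial cells. Capitals mark the receptor pattern, which is on the opposite strand in Atp5g3, and the Cox8b stretch held none of the patterns.
Atp5g3: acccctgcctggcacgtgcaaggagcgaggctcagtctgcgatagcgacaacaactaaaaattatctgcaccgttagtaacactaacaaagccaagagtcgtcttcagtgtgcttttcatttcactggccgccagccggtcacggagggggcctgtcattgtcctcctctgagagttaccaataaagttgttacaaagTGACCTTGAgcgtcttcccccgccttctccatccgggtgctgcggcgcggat
Cox8b: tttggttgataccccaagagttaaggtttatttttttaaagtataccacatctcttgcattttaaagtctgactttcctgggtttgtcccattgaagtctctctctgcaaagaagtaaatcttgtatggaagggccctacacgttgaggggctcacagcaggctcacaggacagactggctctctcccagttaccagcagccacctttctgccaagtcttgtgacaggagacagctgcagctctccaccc

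Between genotypes few members differed past the size limit used. Ratios are Fbn1 C1039G/+ over wild type, and a gene passed the rule when it differed at least 1.5-fold with an exact 95% interval excluding 1, which covers counting error only, as pooled mice in 1 library each leave no test. In interstitial cells 0 of 98 measured members passed, where 2.22% of all genes measured did. In macrophages 1 of 96 passed (4.98% of all genes), in endothelial cells 1 of 97 (7.04%) and in melanocytes 2 of 96 (8.33%). With 1 CPM added to both levels, the median log2 ratio of members was 0.00, 0.08, -0.05 and -0.08 in these classes, against 0.03, 0.02, 0.01 and 0.01 for all genes.

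The 4 that passed were single genes of low level. Ndufaf7, a methyltransferase that modifies complex I, went from 12.5 to 20.7 CPM in macrophages (ratio 1.66, 1.27 to 2.18). Cox6b2 went from 16.8 to 30.8 CPM in endothelial cells (1.84, 1.35 to 2.53). In melanocytes Ndufaf2 went from 59.9 to 28.3 CPM (0.473, 0.249 to 0.858) and mt-Nd6 from 66.8 to 35.4 CPM (0.530, 0.298 to 0.910), on 16 and 20 UMIs in the Fbn1 C1039G/+ library. Ndufaf2 ran the other way in macrophages, at 1.29 (1.04 to 1.61).

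Among the class-specific isoforms, Cox4i2 had a ratio of 1.03 in interstitial cells (1.00 to 1.06), whereas Ndufa4l2 had 0.677 (0.629 to 0.728), which did not reach the 1.5-fold limit. The lower Ndufa4l2 level in Fbn1 C1039G/+ held in each mural marker bin, most in cells with 20 or more such UMIs. Mural markers also differed. In the interstitial class Abcc9 went from 53.7 to 36.4 CPM and Kcnj8 from 30.7 to 22.7, while Rgs5 went from 148 to 177 CPM. In the top bin the 6 markers summed to 2770 and 2078 CPM, and their part in the Ndufa4l2 ratio was not tested. Cox7a2l was below 1 in all 4 classes, at 0.854 in interstitial cells, 0.911 in macrophages, 0.842 in endothelial cells and 0.751 in melanocytes, and Cox5a was above 1 in all 4, at 1.19, 1.23, 1.12 and 1.24.

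**Figure D5:**
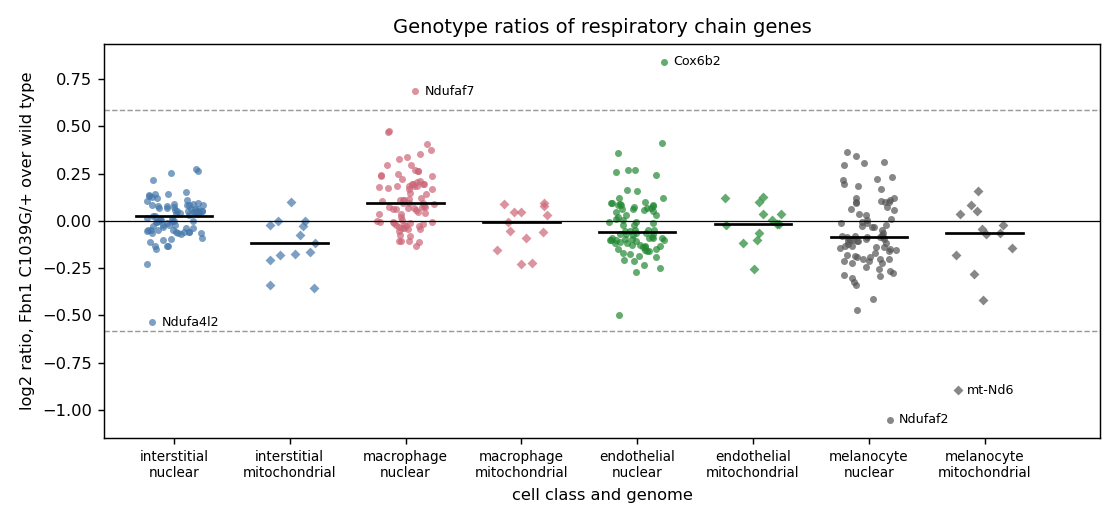
Log2 ratio of Fbn1 C1039G/+ over wild type, with 1 CPM added to both, for each measured member, by cell class and genome; black bars are medians, dashed lines mark 1.5-fold, and the genes that passed the rule and Ndufa4l2 are named. Nearly all members lie between the dashed lines in each class.

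The composition of the mitochondrial transcripts also differed between the libraries. The 7 mt-Nd genes, which encode complex I subunits, made up 20.6% of mitochondrial UMIs in wild type interstitial cells (exact 95% interval 20.5 to 20.6) and 18.9% in Fbn1 C1039G/+ (18.8 to 18.9). The shares were 16.8% and 15.7% in macrophages, 17.5% and 16.6% in endothelial cells, and 20.2% and 18.3% in melanocytes, so the share was lower in the Fbn1 C1039G/+ library in each class. The share of mt-Cytb ran the other way in each class, from 12.7% to 13.8% in interstitial cells, 9.61% to 9.88% in macrophages, 14.2% to 15.0% in endothelial cells and 10.8% to 12.0% in melanocytes. In interstitial cells all 7 mt-Nd genes had a log2 ratio below 0, with mt-Nd3 at a ratio of 0.781 and mt-Nd6 at 0.786, while mt-Cytb was at 1.07. In melanocytes 7 of 7 were below 0, and in macrophages and endothelial cells 6 of 7, with mt-Nd2 the exception at 1.02 and 1.00. The classes of a library share its preparation, so the genotype and the library cannot be told apart here. mt-Nd4l with mt-Nd4 and mt-Atp8 with mt-Atp6 overlap on shared transcripts, and the split between the genes of each pair is uncertain.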

How the data were processed

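Leaflets were dissociated with a mixture of matrix-digesting enzymes and single cells were captured with a 10x Genomics 3′ version 3.1 kit, per the labels' protocols. The authors deposited a matrix of unnormalised UMI counts for each library, which their Cell Ranger run on mm10 had produced. The submitters' processing notes name version 3.1.0 and the file headers 5.0.1, and which of them was run is not known. Empty barcodes were not analysed here, so free RNA was neither measured nor subtracted.

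Of 9509 wild type and 9744 Fbn1 C1039G/+ barcodes, with 100969482 and 103663375 UMIs, those with at least 500 genes, 1000 UMIs and at most 20% mitochondrial UMIs were kept. Scrublet's automatic threshold (scanpy 1.11.5) called 0 doublets in both libraries and had not worked, so the highest-scoring 764 and 779 barcodes were removed, at 0.8% per 1000 barcodes, which left 8426 and 8661 cells. UMIs were summed per class and library into 8 sums. Class differences were tested with edgeR 4.0.16 (R 4.3.3; glmQLFit and glmQLFTest), with library as a block, all UMIs as totals, a minimum mean of 5 CPM and Benjamini-Hochberg adjustment within each of 6 contrasts. Their spread is that between 2 libraries that also differ in genotype. On data simulated for macrophages against interstitial cells, 198 of 200 changed genes were recovered and 13 of 10092 others were called. These counts are for that contrast only and are not split by size of change. Recovery in the shallower melanocyte sums was not tested, and the counts do not give it near the 1.5-fold limit. Genotype ratios and their intervals used no pseudocount and their log2 values a pseudocount of 1 CPM, for genes with at least 20 CPM in either library and 50 UMIs. Intervals are exact at 95% (Clopper-Pearson, Poisson or conditional binomial) and cover counting error only. A group at 0 was set at a floor of 3 counts per library.

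Alternatives were doublets kept, other mitochondrial limits, stricter classes, cells thinned to 3000 UMIs, other scalings and filters, DESeq2 1.42.0, and each library left out. Members, gene lists and tests were chosen with earlier results of these data known. Named are the isoform families, class-specific members, the 5 largest and 5 smallest called ratios per contrast, the mitochondrial genes, genotype changes past the rule and the leading called genes of the 4 further lists, while Uqcrfs1, Ndufv3, Cox6c, Ndufa11, Ndufaf1, Ndufaf6, Ndufaf8, Ndufa3, Ndufb8, Sdha to Sdhd, Lum, Col1a1, Dcn and Pdgfra were added after their values were seen. Genes were placed with GENCODE M21, which matched 32158 of 32285 identifiers.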

Additional observations from a re-analysis of the deposited data

How the results depend on the processing

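No called member changed direction in any alternative; 7 of 11 calls in macrophages, 4 of 9 in endothelial cells and 33 of 54 in melanocytes were kept in all of them. Counts of members moved mainly with the scaling and the fold limit. Shares of all genes are given above for the main fit, TMM factors and DESeq2 only. The other counts here show how the calls moved and are no result about the members. With TMM factors macrophages had 18 higher, endothelial cells 2 higher and 6 lower, and melanocytes 33 higher; with DESeq2 these were 15, 2 and 6, and 34. By adjusted p alone (edgeR) macrophages had 22 higher and 26 lower, endothelial cells 36 and 6, and melanocytes 79 higher. With interstitial cells taken from 2%, 5 were higher in macrophages and 1 was lower in endothelial cells and in melanocytes. A minimum mean of 20 CPM left 1 lower in both of these classes, no filter on level gave 4 lower in endothelial cells, and a mean over cells, without a test, gave 4 lower in endothelial cells and 4 in melanocytes. Without 1 library, by values with no test, macrophages had 3 to 8 higher (8 without the wild type) and 9 to 10 lower, endothelial cells 8 to 10 and 2 to 3, and melanocytes 44 to 57 and 0 to 2 (0 without Fbn1 C1039G/+), while the number of class-specific members was 3 either way. With no replicate block the counts were 4 and 8, 7 and 2, and 52 and 2. These class comparisons were paired within library, whereas genotypes, with 1 library each, could not be paired.

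The endothelial over interstitial mitochondrial share was 1.36 with cells thinned and 1.34 by the median over cells, and the melanocyte one 1.34 with doublets kept. Between genotypes, members past the rule numbered 1 in interstitial cells with doublets kept and 1 with cells thinned, 2 in macrophages with cells thinned and 3 with no filter, and 3 in endothelial cells with cells thinned. Median log2 ratios of members stayed near 0: interstitial 0.006 with doublets kept, 0.0071 from 2% and -0.0035 thinned, which reversed it; macrophage 0.0882 thinned; endothelial -0.0376 with doublets kept, -0.0273 without cells holding cardiomyocyte markers and 0 thinned, where its sign was lost; melanocyte -0.0658 with doublets kept and -0.0395 thinned. The cause of these shifts was not tested. Melanocyte depth limits every statement on a gene at a few CPM, since 3 counts there stand for 4.18 CPM (wild type library) or 5.31 CPM (Fbn1 C1039G/+ library).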
